A study of Mus musculus with 6 samples.

Results

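The SPRR2 genes are a family of small proline-rich genes that lie side by side on mouse chromosome 3, and 10 of the 47729 genes in the deposited table belong to the set described here. They were matched by gene name (Sprr2a3, Sprr2b, Sprr2d, Sprr2e, Sprr2f, Sprr2g, Sprr2h, Sprr2i, Sprr2j-ps and Sprr2k). The family was chosen by its fold change between the gels, which was already known, so the levels and fold changes below are descriptions without a test. Epidermis of wild-type C57BL/6 mice was compared after a gel with AKBA (3 libraries) and after a gel without it (3 libraries, called control gel). AKBA stands for acetyl-11-keto-β-boswellic acid, which comes from frankincense resin. The control libraries carry the letters IMQ in their descriptions, which the labels do not explain. The labels state no age, sex, dose or treatment beyond the gel, nor whether replicates were separate animals, so standard errors cover only the spread between these libraries.

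SPRR2 proteins are short, and transglutaminases cross-link them into the cornified envelope, the protein shell that replaces the plasma membrane of dying keratinocytes at the skin surface. They act as flexible bridges between larger envelope proteins such as loricrin. In mouse skin their transcription is known to go up after barrier damage, ultraviolet light and inflammation, and Sprr2d and Sprr2h are known to respond to the antioxidant factor NRF2. The human SPRR2A promoter is known to use sites for AP-1, ETS and octamer-binding proteins.

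The 10 genes occupy chr3:92285417-92433925 (GENCODE M21, GRCm38), all on the plus strand. None of the 10 overlaps another annotated gene. From the low coordinate upward they run Sprr2a3 (92285417 to 92291405), Sprr2b (92316620 to 92318085), Sprr2d (92339140 to 92340873), Sprr2e (92352143 to 92353449) and Sprr2f (92365187 to 92366442). Sprr2g (92373915 to 92375229), Sprr2h (92385685 to 92387324), Sprr2i (92407991 to 92409271), Sprr2j-ps (92418082 to 92419396) and Sprr2k (92432582 to 92433925) follow. Sprr2g is annotated as a polymorphic pseudogene. Sprr2j-ps carries a pseudogene name and is a transcribed pseudogene in RefSeq, whereas GENCODE lists it as protein coding.

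RefSeq (GRCm38.p6) gave promoter windows for 8 of the 10 genes, from 250 bases before to 50 bases after the start of transcription. The windows were searched on both strands for an AP-1 site (TGANTCA), an octamer (ATGCAAAT), an ETS site (GGAAGT) and a TATA box (TATAAA). Bases -200 to -21 from the start are printed for 5 genes that span the range of fold changes, with every match in capitals and the plus strand read 5′ to 3′. The stretches are chr3:92285104-92285283, chr3:92338940-92339119, chr3:92364987-92365166, chr3:92385485-92385664 and chr3:92432382-92432561.
Sprr2a3: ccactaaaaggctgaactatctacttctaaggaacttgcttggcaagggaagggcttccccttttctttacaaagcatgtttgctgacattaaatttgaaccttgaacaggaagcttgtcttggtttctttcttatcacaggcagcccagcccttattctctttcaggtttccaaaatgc
Sprr2d: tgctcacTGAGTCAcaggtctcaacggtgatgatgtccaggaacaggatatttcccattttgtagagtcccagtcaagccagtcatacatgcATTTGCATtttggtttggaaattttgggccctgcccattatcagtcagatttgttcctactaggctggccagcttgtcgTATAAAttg
Sprr2f: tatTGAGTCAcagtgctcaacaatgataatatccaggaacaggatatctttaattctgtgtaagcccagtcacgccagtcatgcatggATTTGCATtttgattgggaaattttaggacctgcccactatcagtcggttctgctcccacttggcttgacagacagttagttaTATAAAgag
Sprr2h: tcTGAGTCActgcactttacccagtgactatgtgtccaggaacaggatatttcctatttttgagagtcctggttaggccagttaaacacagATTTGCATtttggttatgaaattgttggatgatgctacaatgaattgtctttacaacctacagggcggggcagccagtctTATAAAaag
Sprr2k: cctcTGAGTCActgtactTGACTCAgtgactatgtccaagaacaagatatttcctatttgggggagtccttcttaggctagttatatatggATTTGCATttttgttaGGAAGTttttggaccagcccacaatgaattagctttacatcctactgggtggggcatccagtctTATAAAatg

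AP-1, octamer and TATA box letters each stood in 7 of the 8 windows. Sprr2a3 held none of the 4 motifs in its window. In the other 7 windows the TATA box began at base -29, the octamer between bases -112 and -108 (always as ATTTGCAT on the plus strand), and the first AP-1 match between bases -198 and -193. Sprr2k held a further AP-1 match at base -182. ETS letters stood in 2 of the 8 windows, those of Sprr2b and Sprr2k. Of the 32851 windows in the table, 7.81% held the AP-1 letters, 1.74% the octamer, 23.8% the ETS letters and 13.6% the TATA box. The GENCODE start of Sprr2a3 lies 113 bases downstream of the RefSeq start, so a window placed there would hold other bases. For Sprr2b the GENCODE start lies 85 bases upstream of the RefSeq start, which would place the TATA and ETS matches of its window after the start. These matches describe letters and not occupied sites.

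**Figure D1:**
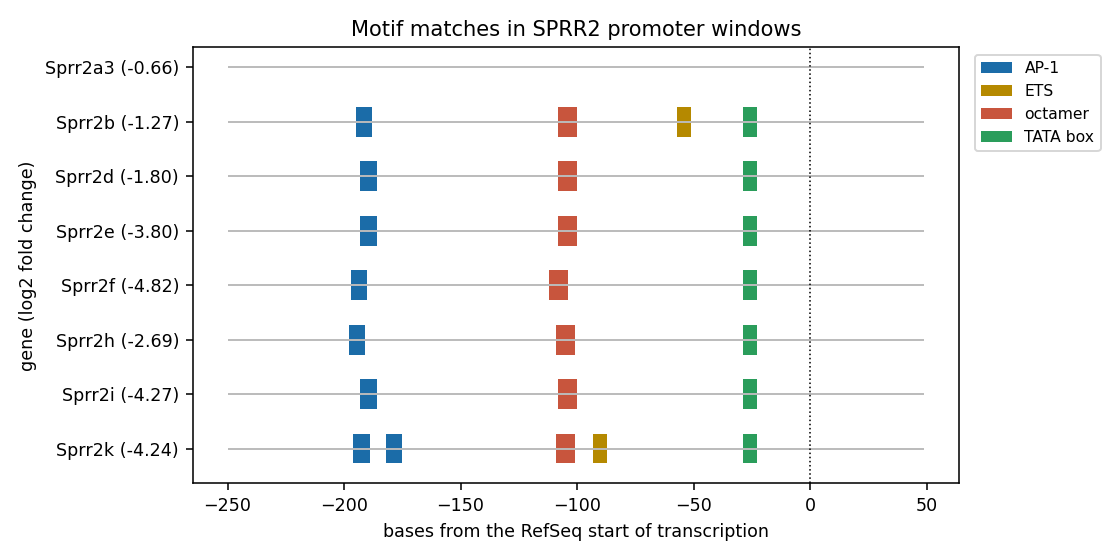
Motif matches (coloured boxes) in the promoter windows of 8 SPRR2 genes, by distance in bases from the RefSeq start of transcription, with each gene's log2 fold change (AKBA gel over control gel) in brackets. The AP-1, octamer and TATA matches line up in 7 genes, and the window of Sprr2a3 (-0.66) holds none.

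How far the counts of one gene can be kept from those of its copies was read from the GENCODE transcripts. Of all distinct 50-base stretches of Sprr2a3, 61.1% also occurred in another gene, all of them in Sprr2a1, and at 100 bases 36.2% did. For Sprr2b 14.1% of 50-base stretches were shared with Sprr2a1, for Sprr2i 12.5% and for Sprr2e 10.2% were shared, mostly with each other. Sprr2d shared 4.27%, Sprr2f 0.714% and Sprr2j-ps 0.159%, while Sprr2g, Sprr2h and Sprr2k shared 0 stretches. At 100 bases the share was at most 1.16% for every gene but Sprr2a3. No read length is stated in the labels, so the level of Sprr2a3 in particular may hold reads of its copies.

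SPRR2 transcripts as a whole were less abundant after AKBA gel. Their summed counts were 4628, 1494 and 5243 in the AKBA libraries (replicates 1 to 3), against 9720, 14594 and 38968 in the control libraries. On a CPM scale (counts scaled to library total, after TMM scaling of the library totals), the sums were 227, 79.3 and 223 after AKBA gel and 462, 636 and 1865 after control gel. The groups did not overlap, and the lowest control sum was 2.04 times the highest AKBA sum. The means were 176 ± 84.1 CPM after AKBA gel and 988 ± 765 CPM after control gel (SD, n = 3 each), a 5.60-fold lower mean. The mean difference in log2 summed CPM was -2.37, and -2.02 when all 13 rows named Sprr2 were summed, which takes in Sprr2a1 and Sprr2a2. Without AKBA replicate 2 and control replicate 3, the lowest and the highest library, it was -1.27.

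In CPM, Sprr2d and Sprr2h differed the most between the gels, being abundant, but in fold change the order was another. Sprr2a3 had overlapping groups, Sprr2b and Sprr2d differed by a few fold, Sprr2h by more, and Sprr2e, Sprr2f, Sprr2g, Sprr2i, Sprr2j-ps and Sprr2k by over 10-fold in the means. By edgeR without control replicate 3, only Sprr2f and Sprr2j-ps of these 6 stood beyond 10-fold. All 10 genes had a lower mean after AKBA gel, and in 9 of 10 the groups did not overlap. Among the 17023 genes kept by edgeR's low-count filter, which kept all 10, 9.1% lay lower in every AKBA library than in any control library and 9.28% higher. As the family was chosen on this comparison, nothing is read from its count.

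**Figure D2:**
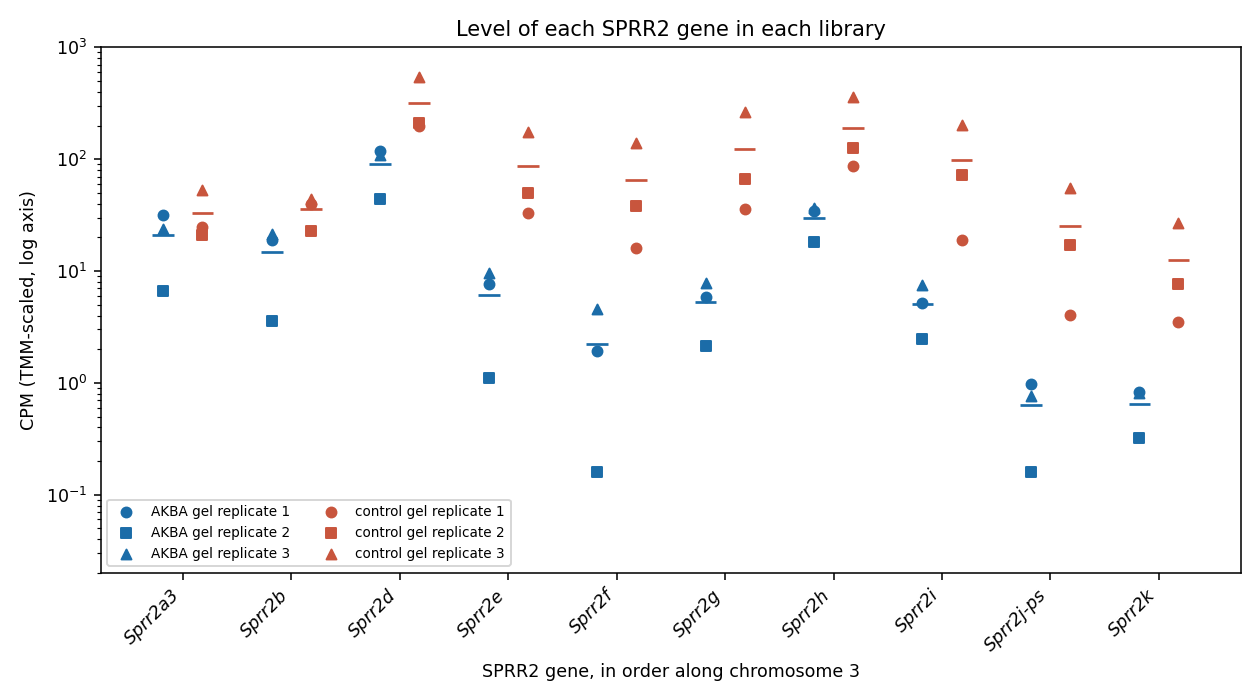
TMM-scaled CPM (log axis) of the 10 SPRR2 genes in order along chromosome 3, AKBA gel (blue) left of control gel (red), 1 symbol per replicate and a bar at each mean of 3 libraries. Control replicate 3 is the highest and AKBA replicate 2 the lowest library for each gene, and the groups overlap for Sprr2a3 alone.

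Sprr2d was the most abundant of the 10 SPRR2 genes described here. It had 119, 44.5 and 110 CPM in the AKBA libraries, against 199, 212 and 542 CPM in the control libraries. The groups did not overlap, with control replicates 1 and 2 close together and replicate 3 far above them. Sprr2h had 34.3, 18.3 and 36.4 CPM after AKBA gel and 86.3, 127 and 363 CPM after control gel. Its lowest control library was 2.37 times its highest AKBA library. By edgeR the log2 fold change (AKBA gel over control gel) was -1.80 ± 0.49 (SE) for Sprr2d and -2.69 ± 0.55 for Sprr2h. Without control replicate 3 they were -1.17 and -1.85.

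Among the genes with steep differences, Sprr2g had 5.88, 2.12 and 7.87 CPM after AKBA gel, against 36.0, 67.1 and 264 CPM after control gel. Its log2 fold change was -4.52 ± 0.84 (SE), and its lowest control library stood 4.57 times above its highest AKBA library, the widest such gap of the 10 genes. Sprr2f had 1.91, 0.159 and 4.60 CPM after AKBA gel and 16.1, 38.5 and 139 CPM after control gel. These are 39, 3 and 108 counts against 339, 882 and 2914, so AKBA replicate 2 stood at the floor of 3 counts. For Sprr2f the log2 fold change was -4.82 ± 1.05 (SE). Without control replicate 3 the values were -3.27 for Sprr2g and -3.58 for Sprr2f. Its AKBA libraries differed among themselves by 28.9-fold, the most of any member.

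Sprr2e, a neighbour of Sprr2f, had 7.64, 1.11 and 9.62 CPM after AKBA gel, against 33.0, 49.8 and 176 CPM after control gel. Sprr2i had 5.19, 2.44 and 7.45 CPM after AKBA gel, against 19.1, 72.9 and 202 CPM after control gel. For neither gene did the groups overlap, and their log2 fold changes were -3.80 ± 0.85 for Sprr2e and -4.27 ± 0.85 for Sprr2i (SE). Without control replicate 3 they were -2.74 and -3.18. Sprr2j-ps and Sprr2k were the lowest per length after AKBA gel, though not after control gel. Sprr2j-ps had 20, 3 and 18 counts in the AKBA libraries, against 85, 388 and 1157 in the control libraries. Sprr2k had 17, 6 and 19 counts after AKBA gel and 74, 175 and 558 after control gel. Their log2 fold changes were -5.28 ± 1.04 for Sprr2j-ps, the lowest of all 17023 genes tested, and -4.24 ± 0.82 for Sprr2k (SE). Without control replicate 3 they were -4.01 and -3.07. SPRR2 genes held 6 of the 10 lowest fold changes, a ranking that belongs to the choice of the family.

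At the low end of the cluster the picture was different. Sprr2a3 had 31.8, 6.69 and 24.0 CPM after AKBA gel and 24.8, 21.2 and 53.0 CPM after control gel. The groups overlapped, since AKBA replicate 1 stood above control replicates 1 and 2. Its log2 fold change of -0.66 ± 0.55 (SE) was -0.14 without control replicate 3 and 0.28 without both that library and AKBA replicate 2. Sprr2b had 18.9, 3.56 and 21.5 CPM after AKBA gel, against 40.0, 22.9 and 43.9 CPM after control gel. Its groups were apart by only 1.07 times, with a log2 fold change of -1.27 ± 0.56 (SE).

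In the edgeR fit over the whole table (quasi-likelihood test, Benjamini-Hochberg adjustment over 17023 genes), 0 of the 10 members and 0 genes in all (0.0%) had an adjusted p under 0.05, the members' values ranging from 0.331 to 0.629. At an unadjusted p under 0.05 the fit held 8 of 10 members, all lower after AKBA gel, where 2291 genes (13.5%) passed in either direction and 7.01% passed as lower. DESeq2 called 7 of 10 members lower, all but Sprr2a3, Sprr2b and Sprr2d, where it called 1.17% of genes lower. An adjusted p under 0.05 with a lower level after AKBA gel was given to 8 of 10 members in the authors' deposited table, as to 0.488% of its genes. The log2 fold changes of the authors' deposited table differed from edgeR's by at most 0.18 for any member. These counts come from the contrast by which the family was chosen.

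**Figure D3:**
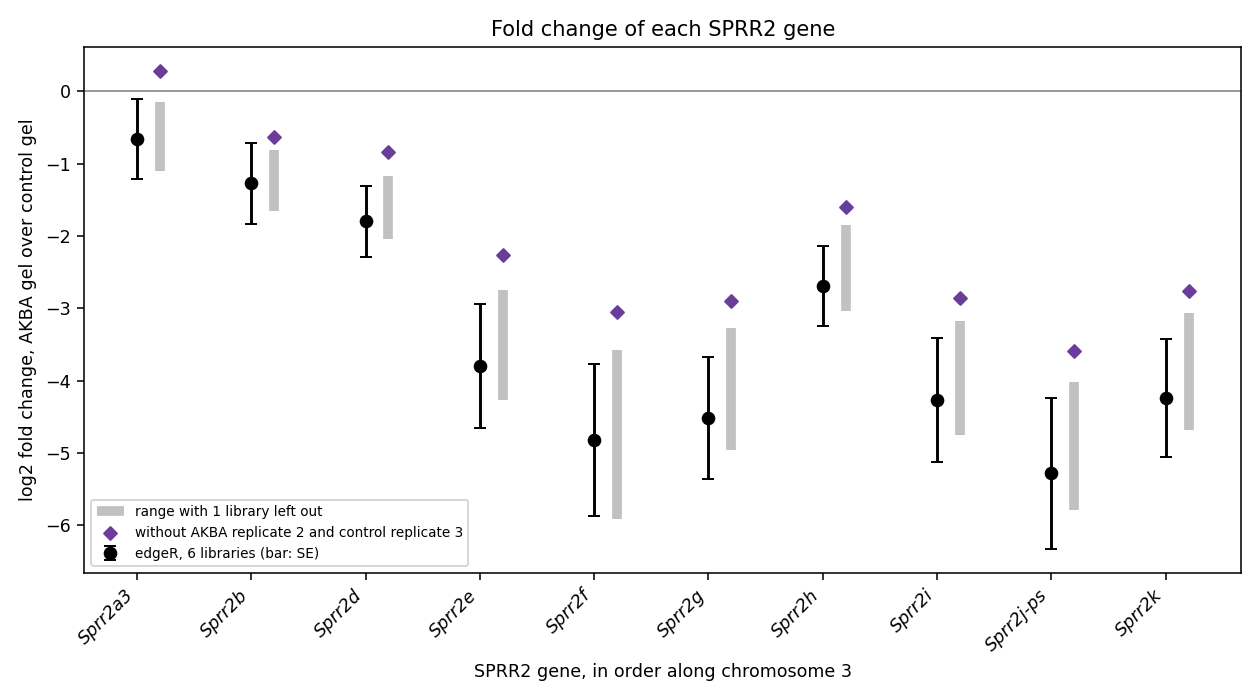
Log2 fold change (AKBA gel over control gel) for each SPRR2 gene in order along chromosome 3 (black points, edgeR with all 6 libraries, bars SE), the range with 1 library left out (grey) and the value without AKBA replicate 2 and control replicate 3 (diamonds). Sprr2a3, Sprr2b and Sprr2d lie nearest to 0, Sprr2h stands above its neighbours, and only Sprr2a3 changes sign (0.28).

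Fold changes followed the order of the genes in part. Sprr2a3, Sprr2b and Sprr2d, the members at the low coordinate end, had the smallest differences, and the steepest lay from Sprr2e to Sprr2k with Sprr2h as the exception. Spearman's rho between order and log2 fold change was -0.71 over the 10 genes, which share libraries, neighbourhood and sequence. Order also went with the ratio of control replicate 3 over control replicate 1 (rho = 0.81), which holds no AKBA library. Fold change did not go with abundance in control gel (rho = -0.03 with the mean level per length). No such correlation was taken with the level after AKBA gel, where Sprr2j-ps, the gene of lowest fold change, was also the scarcest (0.950 FPKM).

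The genes also differed in how widely they varied among control libraries. Control replicate 3 was the highest library and AKBA replicate 2 the lowest for 10 of 10 members, an order of extremes held by 6.82% of all genes tested. Sprr1a, Sprr1b, Sprr3, Krt6a, Krt6b, Krt16 and Krt17, described below, had it too, and Sprr4 did not. These 2 libraries were also the ends (-43.8 and 46.2) of the first principal component of all genes tested, which held 42.1% of the variance. As the members were chosen for their fold change, nothing is read from their count. Control replicate 3 exceeded control replicate 1 by 1.10 times for Sprr2b, 2.14 times for Sprr2a3, 2.72 times for Sprr2d and 4.20 times for Sprr2h. For Sprr2e it did so by 5.32 times, for Sprr2g by 7.34, for Sprr2k by 7.59, for Sprr2f by 8.65, for Sprr2i by 10.6 and for Sprr2j-ps by 13.7. For Sprr2b and Sprr2a3 control replicate 2 was the lowest control library, and the highest stood 1.91 and 2.50 times above it. Genes with the larger ratio of control replicate 3 over control replicate 1 were also those with the larger difference between gels (rho = -0.93 over the 10 genes). Control replicates 1 and 3 enter both of these quantities. With the AKBA libraries set against control replicate 2 alone, which does not enter that ratio, rho was -0.96. Control replicate 2 itself stood above control replicate 1 for 8 of 10 members, and the family was chosen on the difference between gels. Leaving out the shared libraries therefore does not make the quantities independent, and no conclusion is drawn from this value.

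**Figure D4:**
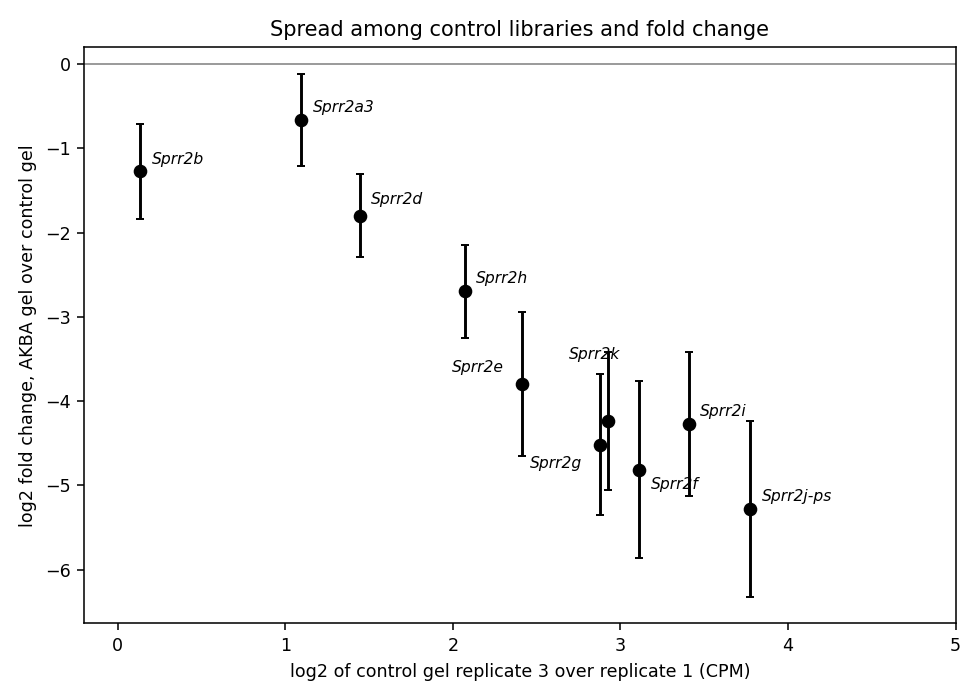
Log2 fold change (AKBA gel over control gel) (edgeR, bars SE) against the log2 ratio of control gel replicate 3 over replicate 1 in CPM, 1 point per SPRR2 gene. Sprr2b and Sprr2a3 lie at the upper left, Sprr2j-ps at the lower right (rho = -0.93, 10 genes, no test).

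Levels can be compared between genes only per length, for which the deposited FPKM values (counts scaled to transcript length and library total) were used. Sprr2d was the highest and Sprr2h the second in 6 of 6 libraries, at 136 ± 62.1 and 40.1 ± 14.4 FPKM after AKBA gel and 451 ± 243 and 245 ± 174 FPKM after control gel (SD, n = 3 each). After AKBA gel Sprr2b followed (19.1 ± 13.0 FPKM), then Sprr2e (9.71 ± 7.27), Sprr2i (8.35 ± 4.50), Sprr2g (8.33 ± 4.87), Sprr2a3 (7.32 ± 4.46), Sprr2f (3.80 ± 3.95), Sprr2k (1.04 ± 0.481) and Sprr2j-ps (0.950 ± 0.632). After control gel Sprr2g followed (178 ± 170 FPKM), then Sprr2i (151 ± 137), Sprr2e (127 ± 107), Sprr2f (101 ± 96.6), Sprr2b (44.6 ± 12.5), Sprr2j-ps (35.6 ± 35.5), Sprr2k (18.8 ± 17.3) and Sprr2a3 (11.1 ± 5.06). Neighbours in either order differed by less than the larger of their SDs, except for Sprr2d against Sprr2h and Sprr2h against Sprr2b after AKBA gel.

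The make-up of the summed level of these 10 genes therefore differed between the gels, and this does not depend on how the libraries were scaled. Other rows named Sprr2, such as Sprr2a1 and Sprr2a2, are not in this sum. Sprr2d made up 60.2%, 61.4% and 54.8% of the summed SPRR2 FPKM in the AKBA libraries, against 45.6%, 34.0% and 29.4% in the control libraries. Sprr2g made up 3.10%, 3.06% and 4.10% after AKBA gel and 8.60%, 11.3% and 15.0% after control gel. The shares of Sprr2h overlapped, with 15.7% to 22.8% in AKBA libraries and 17.8% to 18.5% in control libraries. In all, 2 shares (Sprr2a3 and Sprr2d) were higher in every AKBA library than in any control library, 6 were lower (Sprr2e, Sprr2f, Sprr2g, Sprr2i, Sprr2j-ps and Sprr2k), and those of Sprr2b and Sprr2h overlapped. Shares of one sum are tied to each other, and they restate the uneven fold changes without a test.

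**Figure D5:**
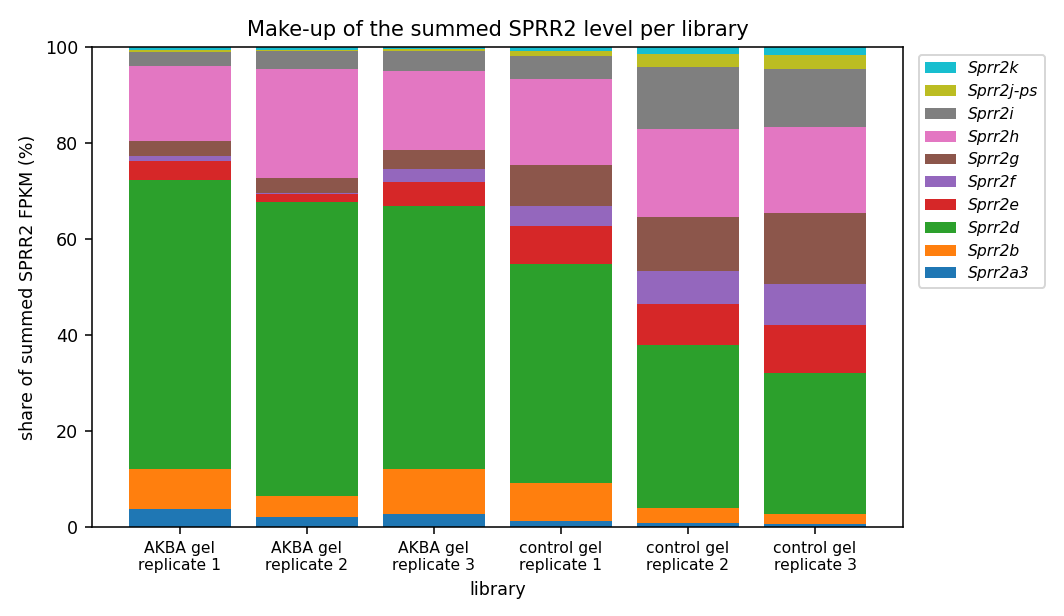
Share of each SPRR2 gene in the summed SPRR2 FPKM (per cent) in each library, AKBA gel at the left and control gel at the right. The green segment, Sprr2d, takes 54.8% to 61.4% of the sum after AKBA gel and 29.4% to 45.6% after control gel.

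The tissue in these libraries was mixed and the libraries were uneven. Library totals were 19066045 to 21992741 counts after AKBA gel and 20568296 to 22760432 after control gel. Summed CPM of 5 markers each was 10013 to 14587 after AKBA gel against 13745 to 32725 after control gel for basal keratinocytes. For suprabasal and granular keratinocytes it was 32366 to 60652 against 23573 to 36372. Krt14 was the largest part of the basal sum (4329 to 8396 against 8452 to 24362 CPM). Its log2 fold change was -1.22, beside a median of -0.24 for the 5 basal markers and 0.13 for Col17a1. Krt1 and Krt10 made up most of the suprabasal and granular sum. The log2 fold changes of its 5 markers ran from 0.11 (Krtdap) to 1.92 (Flg2), with a median of 0.95. For cells other than keratinocytes the sums were 19329 to 25572 against 18648 to 35115 for fibroblasts and 3693 to 4384 against 2823 to 6170 for skeletal muscle. For macrophages they were 1192 to 1370 against 1371 to 1926, and for hair follicle 6.52 to 1290 against 47.5 to 1772. Of 5 neutrophil markers Ly6g had 0 counts in all 6 libraries, Ngp at most 2 and Retnlg at most 20. Their sum (169 to 362 against 305 to 1371) was nearly all S100a8 (167 to 356 against 298 to 1350). Mmp9 had 1.59 to 5.40 against 6.99 to 20.0 CPM. The sum thus rests on S100a8 and is not read as a level of neutrophils. Immediate early and stress genes, known to respond to tissue handling, summed to 111 to 134 CPM after AKBA gel and 143 to 225 CPM after control gel, without overlap. The part of these differences in the SPRR2 levels was not tested, and fewer cells of a type cannot be told apart from less RNA per cell.

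Beside the cluster lie the related genes Sprr1a, Sprr1b, Sprr3 and Sprr4, which code for envelope proteins of the same build. Sprr1b had 277, 119 and 190 CPM after AKBA gel and 449, 848 and 1682 CPM after control gel, without overlap. Sprr1a had 372, 203 and 293 CPM after AKBA gel and 330, 752 and 1893 CPM after control gel, and its groups overlapped. Sprr4 went the other way, with 146, 82.1 and 64.9 CPM against 55.3, 27.4 and 33.9 CPM. The log2 fold changes were -2.35 ± 0.51 (SE) for Sprr1b, -1.78 ± 0.58 for Sprr1a and 1.33 ± 0.36 for Sprr4. Sprr3 was scarce at 3, 0 and 4 counts after AKBA gel and 11, 19 and 32 after control gel, with a log2 fold change of -3.05 ± 0.71 (SE). DESeq2 called Sprr1b and Sprr3 lower and Sprr4 higher, where it called 1.17% of genes lower and 0.513% higher. By edgeR 0 of the 4 passed over all genes, and the median of their log2 fold changes was -2.06, beside -4.02 for the SPRR2 genes and 0.00 for all genes tested. It was -1.32 without control replicate 3.

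The genes of other envelope proteins had a median log2 fold change of -0.02. Of 15 envelope protein genes tested by edgeR 0 were called, 3 passed an unadjusted p under 0.05 as higher and 0 as lower, where 6.45% of all genes tested passed as higher and 7.01% as lower. These 3, picked after their values were seen, were the major envelope protein loricrin, Lor, the filaggrin relative Flg2 and the protease inhibitor Cst6. Lor had 4268, 6718 and 2085 CPM after AKBA gel, against 2295, 1423 and 1686 CPM after control gel, with AKBA replicate 3 inside the control range. Flg2 had 403, 630 and 178 CPM after AKBA gel, against 163, 91.1 and 65.9 CPM after control gel. The log2 fold changes were 1.27 ± 0.42 (SE) for Lor, 1.92 ± 0.49 for Flg2 and 1.17 ± 0.31 for Cst6, and DESeq2 called Lor and Cst6 higher, as it did 0.513% of genes. Over the 6 libraries together the highest in mean CPM, which is not corrected for length, were the desmosomal protein desmoplakin, Dsp (3521 ± 368 CPM after AKBA gel, 3948 ± 837 CPM after control gel), and repetin, Rptn (2959 ± 981 CPM after AKBA gel, 4297 ± 1014 CPM after control gel; SD, n = 3 each). The cross-linking enzymes Tgm3 (191 ± 35.6 against 237 ± 58.0 CPM) and Tgm1 (168 ± 29.0 against 250 ± 107 CPM) had overlapping groups, and 0 of the 3 transglutaminases passed at either level. Keratins of activated epidermis had a median of -2.39 over 4 genes, with 0 called by edgeR. DESeq2 called 1 lower (Krt6a), as it did 1.17% of genes. By edgeR 3 passed an unadjusted p under 0.05 as lower, against 7.01% of all genes tested. The same 3 (Krt6a, Krt6b and Krt16) lay lower in every AKBA library than in any control library, against 9.1% of all genes tested. Highest in mean CPM over the 6 libraries together were Krt16 (1261 ± 695 CPM after AKBA gel, 5591 ± 3458 CPM after control gel) and Krt6a (798 ± 530 CPM after AKBA gel, 6049 ± 4009 CPM after control gel).

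Regulators known to act on SPRR2 or other envelope genes had a median log2 fold change of -0.39 over 18 genes, with 0 called by edgeR, and of -0.12 without control replicate 3. At an unadjusted p under 0.05 there were 6 lower and 1 higher, against 7.01% and 6.45% of all genes tested. Of the 18, 5 lay lower in every AKBA library than in any control library (Junb, Fos, Fosb, Fosl1 and Nfe2l2), against 9.1% of all genes. DESeq2 called 3 of the 18 lower (Fos, Fosb and Fosl1) and 0 higher, against 1.17% and 0.513% of genes. Highest in mean CPM was the differentiation factor Klf4 (443 ± 79.5 CPM after AKBA gel, 586 ± 192 CPM after control gel). The AP-1 subunit genes Fos and Fosl1, picked after their values were seen, had 10.5, 11.8 and 10.4 CPM and 2.16, 3.34 and 3.06 CPM after AKBA gel. After control gel they had 19.3, 39.4 and 54.3 CPM and 5.99, 10.5 and 24.8 CPM. The AP-1 subunit genes Junb and Fosb, also without overlap, had log2 fold changes of -0.91 ± 0.29 and -2.29 ± 0.57 (SE). The remaining AP-1 subunit genes of the list had overlapping groups, with log2 fold changes of -0.11 ± 0.13 (SE) for Jun, 0.11 ± 0.18 for Jund and -0.03 ± 0.11 for Fosl2. Fos and Fosb are also among the immediate early genes above. Pou2f3, an octamer-binding factor of keratinocytes and also picked after its values were seen, was higher after AKBA gel. It had 113, 127 and 76.9 CPM after AKBA gel against 76.8, 49.1 and 59.7 CPM after control gel. Its groups thus nearly touched, and DESeq2 did not call it (adjusted p = 0.074).

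Of 10 cytokines known to act upstream of activated epidermis, 6 were abundant enough to test, with a median log2 fold change of -0.14 and 0 called by edgeR. That median had the other sign without control replicate 3 (0.05, with 7 genes past the filter). The IL-36 genes Il1f8 (164 ± 34.1 CPM after AKBA gel, 179 ± 56.9 CPM after control gel) and Il1f9 (167 ± 32.6 CPM after AKBA gel, 173 ± 43.0 CPM after control gel) had the highest mean CPM (not corrected for length) and differed by less than their spread. Il1b, picked after its values were seen, had 1.76, 1.43 and 2.26 CPM after AKBA gel and 2.52, 14.1 and 4.16 CPM after control gel. DESeq2 called 1 of the 10 lower (Il1b) and 0 higher, against 1.17% and 0.513% of genes. Below the low-count filter, Il22 had 2, 0 and 1 counts after AKBA gel and 0, 2 and 1 after control gel, too few to show a difference. Il6 had 1, 1 and 3 counts after AKBA gel and 2, 45 and 11 after control gel. Il17f had 8, 1 and 10 counts against 22, 19 and 10, and Il17a 9, 2 and 4 against 13, 6 and 3. In the authors' deposited table Il1b and Il6 had an adjusted p under 0.05 with a lower level after AKBA gel, as had 0.488% of its genes.

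Outside the family the genes whose log2(CPM + 1) ran most alike to that of the summed SPRR2 level over the 6 libraries were Pla2g4d, Klk12, Cltc, Gk and Zdhhc20, out of 12251 genes with a mean of at least 5 CPM. Their Pearson correlations were 0.999, 0.999, 0.999, 0.998 and 0.998, given as a description of 6 libraries that fall into 2 groups. Pla2g4d, a cytosolic phospholipase A2, had 9.80, 3.13 and 9.91 CPM after AKBA gel, against 21.0, 31.5 and 83.4 CPM after control gel. Klk12, a kallikrein-type protease gene, had 6.76, 2.60 and 6.38 CPM after AKBA gel, against 11, 14.4 and 35.6 CPM after control gel. Klk12 had the library order of the SPRR2 sum, and Pla2g4d differed from it only in AKBA replicates 1 and 3, which stood close together. The clathrin heavy chain gene Cltc varied little, between 406 and 475 CPM after AKBA gel and between 519 and 625 CPM after control gel.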

How the data were processed

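The authors deposited one table with a count and an FPKM value per gene and library. Its deposited comparison columns give log2 fold changes with raw and adjusted p-values, by a method the table does not name. Per the submitters' processing notes, CASAVA 1.8, RSEM, edgeR and GRCm38 were used in roles that are not stated. The deposited counts were whole numbers and were used as they stood. Groups and replicate numbers came from the sample titles.

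Levels are CPM after TMM scaling. Fold changes came from edgeR 4.0.16 in R 4.3.3 (default low-count filter, quasi-likelihood F test, 2-sided, Benjamini-Hochberg over all genes kept), with the SE taken as the size of the change over the square root of F. The fit was tested on simulated data. DESeq2 1.42.0 was an alternative. At these depths 3 counts, taken as the floor, equal 0.128 to 0.159 CPM (counting error only). Promoter windows were RefSeq's, and 8 of 10 genes matched. Members and lists were chosen with earlier results of these data known. The rule for named genes took every member, the other SPRR genes, the 2 genes of highest mean CPM in each further list, and the 5 genes most like the SPRR2 sum. A further gene under this rule is not reported here. The envelope gene Flg was not analysed here. Each library was counted separately, since a chi-square of counts within groups was at least 28.3 times its degrees of freedom. Whether counting used strand is unstated, and antisense reads cannot be told apart. Alternatives were another scaling, filters, a replicate block, leaving out single libraries, and, chosen after seeing the data, the lowest and highest library left out together.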

Additional observations from a re-analysis of the deposited data

How the results depend on the processing

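Of the alternatives to edgeR's call over all genes, 292 genes passed by DESeq2 and 14 by edgeR without control replicate 1 (0 of them SPRR2 genes), against 0 genes by edgeR with all 6 libraries; the range with 1 library left out was 0 to 14. The median log2 fold change of the SPRR2 genes ranged from -4.43 to -2.90 with 1 library left out, the value nearest to 0 coming without control replicate 3. It was -2.51 without AKBA replicate 2 and control replicate 3, and the difference in log2 summed CPM was then -1.27, against -2.37 with all 6 libraries. With 1 library left out that difference ranged from -2.78 to -1.77. Of the single genes, Sprr2a3 alone changed sign, at 0.28 without both libraries (range -1.10 to -0.14 with 1 left out), and 7 further members moved by more than their spread there. The median of the cytokine list changed sign too, with a range of -0.52 to 0.05 when 1 library was left out (0.05 without control replicate 3) and 0.063 without both libraries. That list held 6 genes past the filter with all 6 libraries and 6 to 8 with 1 left out, so its members changed too. The cause was not tested. At least 5 CPM in 3 libraries left 8 members, with a median of -3.22.

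The replicate numbers were also fitted as a block. The correlation of same-numbered deviations from the group means was 0.07, 0.02 and -0.33. With so few libraries this cannot tell whether the numbers pair the libraries, which the labels do not state. With the block 0 genes passed and the median log2 fold change of the SPRR2 genes was -3.84. The SE of every SPRR2 gene was lower with the block, for Sprr2g 0.56 against 0.84.

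Sprr2f and Sprr2j-ps had 3 counts each in AKBA replicate 2, so their levels there rest on few counts. Their SEs (1.05 and 1.04) were the largest of the SPRR2 genes, while Sprr2k, with 6 counts there, had 0.82. The part of depth in these SEs was not tested.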
